A study of Mus musculus with 22 samples.

Results

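Chimera C1C3b, a derivative of the mouse transcription factor DUX, was compared with C1+14, a derivative whose name holds C1 and not C3. The comparison rests on 4 libraries, 2 per construct, of 14 in the chimera table and 22 in the series, and the libraries were chosen by construct name alone. All were made from mouse embryonic stem cells of a Dux-/- line kept in 2iLIF, a medium with the cytokine LIF and a pair of kinase inhibitors. After plating and 24 hours of recovery, doxycycline at 0.25 ug/mL was given for 12 hours to induce the construct. The C1C3b cells expressed mCherry-C1C3b Dux and the C1+14 cells mCherry-C1+14 Dux, where mCherry is a red fluorescent protein. The table's column headings end the names of both constructs in 14aa. The other groups used are C1C3a and C1C3c (the sister chimeras), FL (full-length DUX), C3+14 and mCherry alone, each with 2 libraries of the same line and treatment. The labels do not say which residues C1, C3 and 14 cover, how chimeras a, b and c differ, which promoter drives the transgene, or whether a line is 1 clone. They do not say whether replicates were separate cultures either, so p-values measure only the spread between these libraries, which may be technical. The design asks which genes chimera b changes beyond C1+14, and which pluripotency and epithelial genes are lower with it.

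DUX binds DNA through a pair of homeodomains and activates transcription through its C-terminal region. In the mouse embryo it is made briefly around the 2-cell stage, when the embryo's own genome is switched on, and its targets include the Zscan4, Usp17l, Tdpoz and Tcstv gene families. Forced expression in embryonic stem cells turns these genes on and moves the cells towards a 2-cell-like state. Cells in 2iLIF are in the naive pluripotent state, held by factors such as Nanog, Esrrb, Klf2, Prdm14 and Tfcp2l1. They grow as compact epithelial colonies joined by E-cadherin, tight junctions and gap junctions.

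Each value is a gene's read count over the size factor of its library, called normalised reads below. The C1C3b libraries held 25233577 and 23251986 reads, and the C1+14 libraries 24051548 and 28635782. One read was worth 0.877 and 0.939 normalised reads in C1C3b and 0.731 and 0.620 in C1+14. Replicates correlated across genes with Pearson's r of 0.975 for C1C3b and 0.969 for C1+14; genes are not independent replicates. Reads from high-copy genes, in which at least 50% of the 50-base stretches recur in at least 20 genes, made up 2.03% and 2.04% of the C1C3b reads and 1.94% and 2.16% of the C1+14 reads, against 0.320% and 0.350% with mCherry. Mitochondrial reads made up 5.46% and 6.17% with C1C3b and 3.60% and 2.46% with C1+14. They made up 5.16% and 5.22% with mCherry, 6.19% and 5.89% with C1C3a and 3.54% and 3.75% with C1C3c. The part of the difference between C1C3b and C1+14 in the results was not tested. The endogenous Dux gene, listed as Duxf3, had 0 reads in all 14 libraries, those with a DUX construct included, so the induced transcripts could not be checked in this table.

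Many genes differed between C1C3b and C1+14. Of 21584 genes tested, 3864 were higher and 2378 lower, 28.9% of the genes in either direction (17.9% higher, 11% lower). Calls required an adjusted p from limma (Benjamini-Hochberg) under 0.05 together with a difference of at least 1 on the log2(normalised reads + 1) scale, and "rose" and "fell" are used only of called genes. A value after ± is the standard error (SE) from limma. It rests on 1 spread per gene over all 14 libraries, so uneven replicates in groups outside a comparison can widen it. The log2(normalised reads + 1) scale understates the change of genes with few reads. Higher genes made up 61.9% of the calls; quantile normalization, which moved the median difference of all tested genes from 0.15 to -0.09, gave 6278 calls of which 47.3% were higher. Differences below are best read against that 0.15. Called genes that were higher had 0 reads in both C1+14 libraries in 523 cases, while 58 of the lower genes had 0 reads in both C1C3b libraries.

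**Figure D1:**
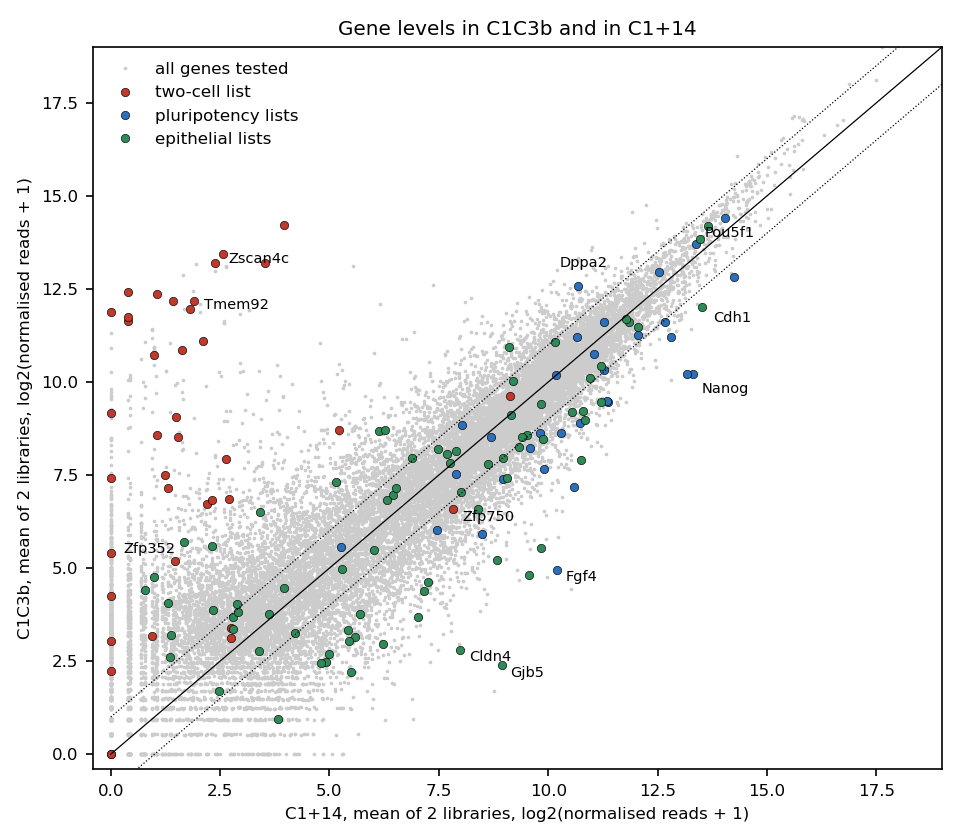
Mean level of each of 21584 genes in the 2 C1C3b libraries (vertical) against the 2 C1+14 libraries (horizontal), on log2(normalised reads + 1) axes. Grey points are all genes tested, and coloured points the 2-cell, pluripotency and epithelial lists; the solid line marks equal levels and the dotted lines a difference of 1. Most 2-cell genes lie far above the line at low C1+14 levels, while Nanog, Fgf4, Cldn4 and Gjb5 lie below it.

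The protein-coding genes with the largest increases, among genes that share little sequence with others, were led by Tmem92, Nts and Ermn. Tmem92, a transmembrane protein gene of the 2-cell list, had 3955 and 3965 normalised reads with C1C3b and 0.731 and 4.34 with C1+14. Nts encodes the neuropeptide neurotensin and had 723 and 773 normalised reads with C1C3b. It had 0 reads in both C1+14 libraries, and its level was at least 369-fold higher with C1C3b when 0 reads are taken as up to 3 per library. Ermn, the gene of the cytoskeletal protein ermin of myelinating cells, had 688 and 572 normalised reads, against 1 and 1 raw reads in the C1+14 libraries. All C1C3b libraries lay far above the C1+14 libraries at these 3 genes, whose choice required groups without overlap. The other genes of the top 10 were B020031M17Rik, Hrnr, Olfr455, Rfpl4b, 4931428L18Rik, Ubtfl1 and Vcam1, with differences between 6.89 and 8.48. Hrnr, a cornified envelope gene, varied between replicates (648 and 1079 with C1C3b, 0 and 22.3 with C1+14), and its call was lost when only these groups were fitted.

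Several of the increases separated C1C3b from its sister chimeras as well. Nts stood at 43.2 and 8.49 normalised reads with C1C3a and 19.6 and 46 with C1C3c, a difference of 5.19 ± 0.63 from C1C3a and 4.59 ± 0.63 from C1C3c (limma adjusted p = 1.8e-05 and 0.00029). Ermn had 9.96 and 0 normalised reads with C1C3a and 70.9 and 201 with C1C3c. It differed from C1C3a by 7.57 ± 0.97 (limma adjusted p = 3.0e-05), while its difference of 2.38 ± 0.97 from C1C3c was not called (limma adjusted p = 0.099). The olfactory receptor gene Olfr455 had 133 and 215 normalised reads with C1C3b, 19.9 and 21.2 with C1C3a and 0.754 and 0 with C1C3c. It was called higher against both. These genes were not particular to C1C3b: with C3+14, Nts had 248 and 246 normalised reads, Ermn 122 and 139 and Olfr455 154 and 188. At Olfr455 the libraries of C3+14 and C1C3b overlapped. Differences between C1C3b and C3+14 were not tested. The C3+14 libraries held 0.30% and 0.30% high-copy reads and 9.0% and 10% mitochondrial reads, unlike those of C1C3b, and the part of this in these levels was not tested. The largest increases over C1C3a also included Ano5, Lrfn5, Fmo2 and Pappa, and Pappa, a metalloproteinase gene, rested on 1 library (2438 and 28.2 normalised reads with C1C3b, 0 with C1C3a). With C3+14 the means of Ano5, Lrfn5 and Fmo2 were 77.6, 70.2 and 176 normalised reads.

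Under the same limits on biotype and shared sequence, the largest decreases were in Gjb5, Rasgef1a, Lpar5, Zfp827, Fgf4, Cldn4, Tfap4, Spire2, Zbtb7b and Rapgef3. Rasgef1a, which encodes an exchange factor of Ras-family GTPases, had 2.63 and 1.88 normalised reads with C1C3b and 126 and 745 with C1+14, a difference of -6.58 ± 0.67. Lpar5, a lysophosphatidic acid receptor gene, had 0 and 1.88 against 111 and 126. Tfap4, a helix-loop-helix transcription factor gene, had 7.89 and 5.63 against 247 and 252. No overlap between groups was a condition for naming these genes, and their differences lay between -7.30 and -4.74.

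Genes of the 2-cell embryo rose in most cases. Of 39 tested members of the list, 33 were higher with C1C3b and 1 lower, beside 17.9% higher and 11% lower among all genes. Their median difference was 7.04, against 0.15 over all genes. It stayed at 7.04 when the 7 members with 0 reads only in C1+14 were set to their lower bound, and 2 members had 0 reads in both groups. Summed over the list, the C1C3b libraries held 92584 and 94085 normalised reads and the C1+14 libraries 984 and 845. Of the 33 higher members, 28 share at least 10% of their 50-base stretches with another gene, so reads may be split among paralogs. Without genes of that kind 9 members were tested and 5 were higher. The list was written with earlier results of these data known.

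The DNA before 4 of these genes is shown because the Zscan4 and Gm21761 genes gave the largest increases, and because Usp17la and Usp17lc, nearly alike upstream, differed in how far C1C3b raised them. The sequences are from RefSeq (GRCm38.p6), on the gene's strand, and stop at the first exon that GENCODE M21 annotates within 250 bases of the RefSeq start. In Zscan4c (chr7:11005495-11005744, plus strand) capitals mark the letters TGATTNAA, searched on both strands. In Gm21761 (chr13:119913549-119913718, minus strand, within an intron of a longer GENCODE transcript) they mark TGATTNAA and then GATTNAATC; the letters of these motifs can overlap each other but do not here. In Usp17la (chr7:104856766-104857008, plus strand) they mark TTTAAAA, which begins 46 bases before the RefSeq start. In Usp17lc (chr7:103416446-103416695, plus strand, within an intron of a longer GENCODE transcript) they mark TATAAAA, which begins 88 bases before it. TATAAAA has the form of a TATA box, and whether either stretch acts as one was not tested.
Zscan4c: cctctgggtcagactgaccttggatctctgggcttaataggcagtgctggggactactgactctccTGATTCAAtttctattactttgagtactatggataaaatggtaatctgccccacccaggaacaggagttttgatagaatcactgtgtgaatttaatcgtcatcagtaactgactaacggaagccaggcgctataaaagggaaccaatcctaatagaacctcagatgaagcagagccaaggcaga
Gm21761: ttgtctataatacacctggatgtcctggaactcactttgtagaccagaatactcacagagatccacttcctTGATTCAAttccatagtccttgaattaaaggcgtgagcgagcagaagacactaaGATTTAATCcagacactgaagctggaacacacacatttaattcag
Usp17la: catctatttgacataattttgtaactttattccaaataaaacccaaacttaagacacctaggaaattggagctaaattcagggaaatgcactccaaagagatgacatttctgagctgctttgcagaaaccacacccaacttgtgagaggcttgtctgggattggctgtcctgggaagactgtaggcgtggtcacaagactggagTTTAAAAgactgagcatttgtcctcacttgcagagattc
Usp17lc: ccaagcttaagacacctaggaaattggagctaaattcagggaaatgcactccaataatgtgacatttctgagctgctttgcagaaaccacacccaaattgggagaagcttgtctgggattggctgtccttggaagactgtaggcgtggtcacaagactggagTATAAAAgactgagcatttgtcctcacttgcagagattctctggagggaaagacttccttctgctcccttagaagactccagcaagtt

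The letters of these motifs were chosen after these windows had been read. Of 40 list members 20 had a promoter entry, with 21 windows in all. Within 250 bases of the start, 6 of the 21 windows (28.6%) held TGATTNAA: those of Zscan4b, Zscan4c, Zscan4d, Zscan4f, Pramel6 and Gm21761. The Zscan4 windows are near copies (Zscan4c and Zscan4d were identical at 232 of 239 aligned bases), so these are not independent. The share was 2.60% of 32851 promoters, 1.65% of the 16348 of genes tested, 3.07% of the 2606 of genes called higher and 0.927% of the 2372 of genes called lower. GATTNAATC was in 0.247% of all promoters, and among list members in those of Gm21761 and Gm4340. In the Usp17l pair 198 of 208 aligned bases were identical (95.2%). TATAAAA was in 4.98% of all promoters and 7 of the 21 windows (33.3%), and TTTAAAA in 8.10% and 3 of 21 (14.3%). The windows with TATAAAA were those of Zscan4b, Zscan4c, Zscan4d, Zscan4f, Usp17lb, Usp17lc and Usp17ld. Usp17lc and Usp17ld were identical at 219 of 228 aligned bases, so these windows are not independent either. A match describes the letters in the window and is no evidence of binding.

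The Zscan4 genes lie in a cluster on chr7 (GRCm38), and the family encodes zinc-finger and SCAN-domain proteins that act in telomere and genome maintenance. All 6 members tested rose, among them Zscan4a, which GENCODE M21 annotates as an unprocessed pseudogene. Zscan4c (chr7:11005745-11010547) had 11391 and 7464 normalised reads with C1C3b and 6.58 and 1.86 with C1+14. Zscan4d (chr7:11161374-11166159) had 5873 and 3419 against 1.46 and 1.86. Both C1C3b libraries lay far above both C1+14 libraries in each case. The differences were 10.95 ± 0.38 and 10.72 ± 0.29 (limma adjusted p = 1.5e-10 and 1.8e-11). Zscan4e, the gene with the largest difference of any biotype (12.05), had 0 and 1 reads in the C1+14 libraries and 7492 and 4710 in the C1C3b libraries. Shared 50-base stretches made up between 48.7% (Zscan4d) and 90.8% (Zscan4e) of these genes, so the level of a single member is uncertain.

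The Usp17l genes encode deubiquitinases of the same family, which remove ubiquitin from other proteins. All 5 rose. Usp17le (chr7:104768049-104777470) had 14789 and 23323 normalised reads with C1C3b and 13.2 and 16.1 with C1+14, a difference of 10.22 ± 0.24. Usp17lc (chr7:103415072-103419880) had 1432 and 2297 against 2.92 and 1.24, a difference of 9.26 ± 0.28. Usp17lb had 0 and 1 reads in the C1+14 libraries and a difference of 11.38. Gm21761 had 0 reads in both C1+14 libraries and 3692 and 3797 normalised reads with C1C3b, at least 1848-fold higher.

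Other known DUX targets rose to lower levels. Zfp352, a zinc-finger gene derived from a retrotransposed copy, had 55.3 and 28.2 normalised reads with C1C3b and 0 reads with C1+14 (at least 20.6-fold higher). Tcstv3 had 173 and 167 against 0 reads (at least 83.8-fold). Tcstv1 reached only 6.14 and 8.45 against 0 reads (at least 3.6-fold), and its call was lost with edgeR and with a pseudocount of 8. Arg2, the mitochondrial arginase gene, went from 2.92 and 7.44 to 229 and 259 normalised reads (5.41 ± 0.43). With FL Arg2 had 137 and 269, and C1C3b was not called against FL (0.34 ± 0.43). With C1C3a it had 893 and 1188, and C1C3b was lower (-2.08 ± 0.43). Duxbl1, a Dux-like homeobox gene that shares 94.5% of its stretches with its copies, went from 2.92 and 4.34 to 140.3 and 69.5. Tdpoz1, Tdpoz2, Pramel7, Ddit4l and Lmx1a were not called, and the first 2 had 0 reads in all 4 libraries. Zfp750, a differentiation factor of epidermis, was the member that fell, from 227 and 225 to 64 and 125 (-1.33 ± 0.45, limma adjusted p = 0.028). Its call was lost when only these groups were fitted and on leaving out C1C3b replicate 1 or either C1+14 library. Low values were not particular to C1C3b. Zfp750 had 20.6 and 29.8 normalised reads with FL, 90.8 and 41.1 with C1C3a and 65.6 and 31.8 with C1C3c, beside 153 and 160 with mCherry. C1C3b was called higher than FL (1.81 ± 0.45).

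C1C3b stood between its sister chimeras at the 2-cell genes. Against C1C3c it was higher at 32 and lower at 0 of 39 members (all genes: 11.2% called, 7.66% higher and 3.53% lower), with a median difference of 4.05. Of the 2415 genes called against C1C3c 68.5% were higher, and 50.2% under quantile normalization. Against C1C3a it was higher at 0 and lower at 35 (all genes: 35.6% called, 18.3% higher and 17.3% lower), with a median of -4.71. Against FL it was higher at 1 and lower at 35 (all genes: 43.0% called, 23.3% higher and 19.7% lower). The 33 members that rose over C1+14 reached a median of 4.02% of their C1C3a level, and the spread was wide, from 0.0307% to 88.5%. Of these, 11 stayed under 1% and 10 reached 10% or more. These comparisons share the C1C3b libraries.

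**Figure D2:**
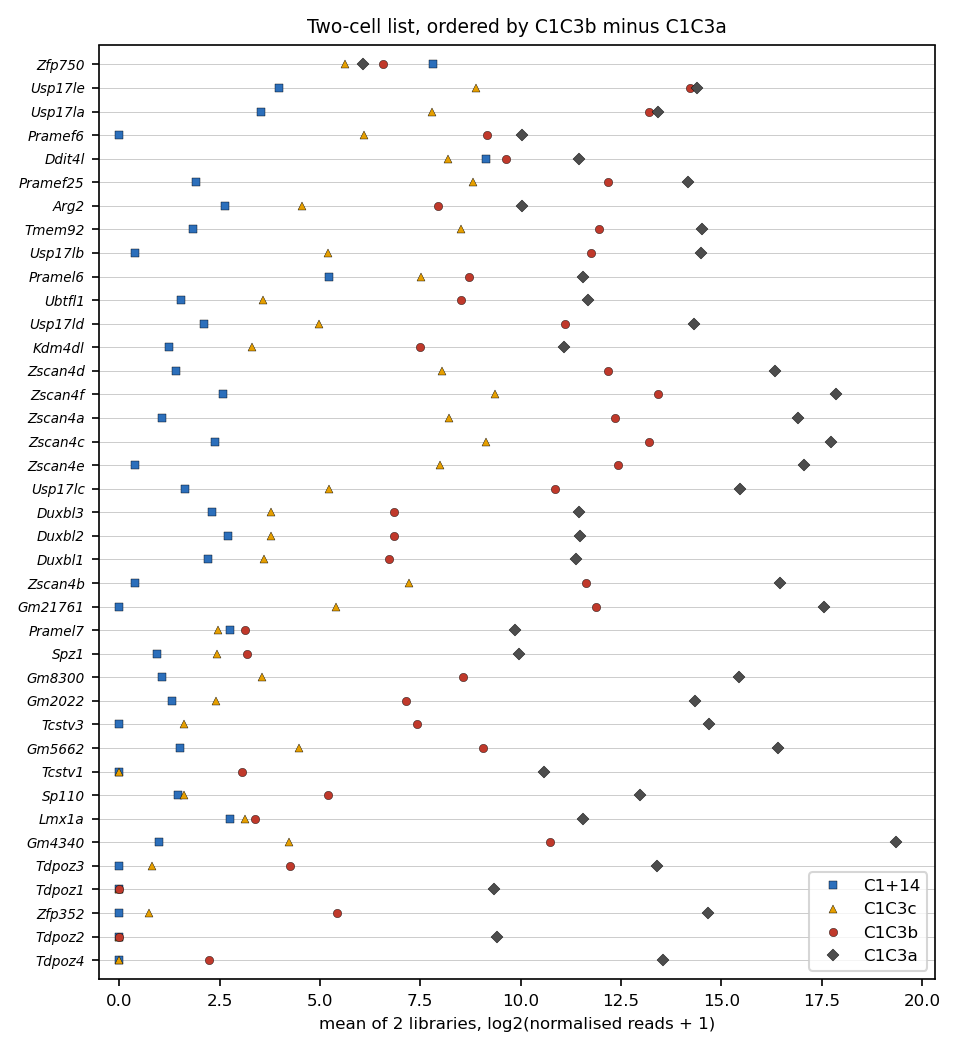
Mean level (2 libraries) of 39 members of the 2-cell list in C1+14, C1C3c, C1C3b and C1C3a, on a log2(normalised reads + 1) axis and ordered by the difference between C1C3b and C1C3a. C1C3b lies between C1C3c and C1C3a for most genes; it meets C1C3a at Usp17la and Usp17le and stays at 0 at Tdpoz1 and Tdpoz2.

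The members did not follow C1C3a in step. Usp17le had 19106 and 23965 normalised reads with C1C3a, and its difference from C1C3b was -0.20 ± 0.24 (limma adjusted p = 0.5). Usp17la had 7412 and 11341 with C1C3b and 11806 and 10245 with C1C3a, a difference of -0.26 ± 0.26 (limma adjusted p = 0.42). At both genes the libraries of the 2 chimeras overlapped. Usp17le was higher still with FL (132138 and 79499 normalised reads), from which C1C3b differed by -2.46 ± 0.24 (limma adjusted p = 2.4e-06). Usp17lc, whose upstream window is nearly that of Usp17la, had 38578 and 52462 normalised reads with C1C3a and stood at 4.1% of that level with C1C3b (-4.63 ± 0.28, limma adjusted p = 3.4e-08). Zfp352 reached 0.159% of its C1C3a level and Tcstv3 0.644%. Zscan4c reached 4.35%. Usp17la and Usp17lc share 18.4% and 42.9% of their stretches with other genes, and Usp17la was singled out after its values were seen.

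**Figure D3:**
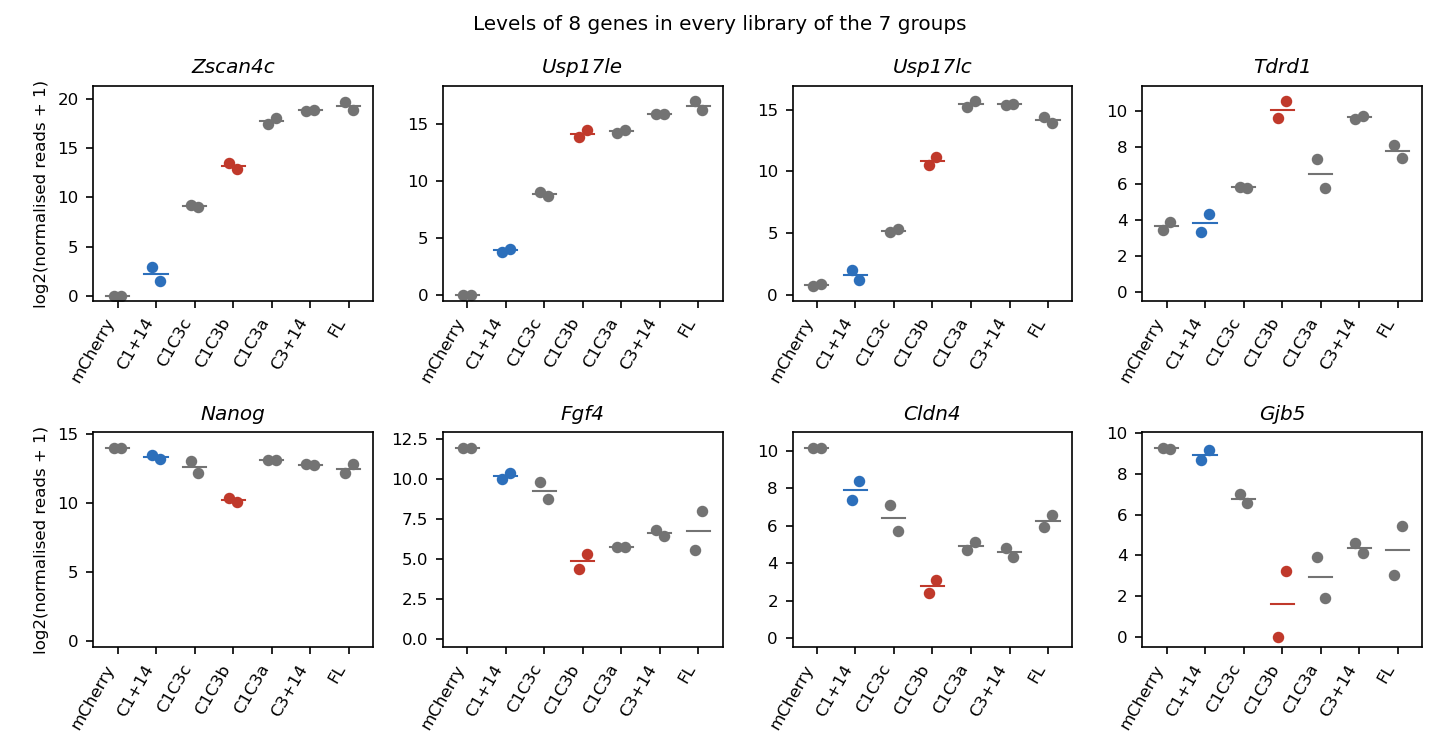
Normalised reads of 8 genes in every library of the 7 groups, on log2(normalised reads + 1) axes that start near 0; points are libraries, bars are means of the 2 log2 values, C1C3b is red and C1+14 blue. Zscan4c and the Usp17l genes step up from C1+14 over C1C3c to C1C3b, Tdrd1 is highest with C1C3b and C3+14, and Nanog, Fgf4, Cldn4 and Gjb5 have their lowest group mean with C1C3b.

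Many pluripotency genes fell with C1C3b. Of 13 naive pluripotency factors, 7 fell and 0 rose (median -1.42), and of 18 core and general pluripotency genes 10 fell and 1 rose (median -1.12). Among all genes 11% fell, and the median was 0.15. Nanog, a homeobox factor of the naive network, had 1308 and 1051 normalised reads with C1C3b and 11149 and 9195 with C1+14. The lower C1+14 library was still several times above both C1C3b libraries. Esrrb, an orphan nuclear receptor that works with it, had 1355 and 1039 against 9776 and 8661. The differences were -3.11 ± 0.24 and -2.95 ± 0.25 (limma adjusted p = 7.8e-07 and 1.5e-06). Klf2, the naive Kruppel-like factor, fell from 1572 and 1501 to 104 and 183 (-3.46 ± 0.40). Prdm14, which holds back DNA methylation in naive cells, fell from 382 and 329 to 47.4 and 72.3 (-2.58 ± 0.37). Tbx3, a T-box factor, fell by less (-1.83 ± 0.32), as did Tfcp2l1 (-1.42 ± 0.22), a LIF-responsive factor with 7608 and 6881 normalised reads remaining.

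Other parts of the network did not pass the test. Pou5f1, the Oct4 gene, had 14155 and 12594 normalised reads with C1C3b and 9781 and 11357 with C1+14 (0.34 ± 0.15, limma adjusted p = 0.084). Klf4 had 2285 and 2425 against 1741 and 1490.1 (0.55 ± 0.36, limma adjusted p = 0.23). Sall4 (-0.27 ± 0.19) and Dppa3 (0.25 ± 0.81) were not called. Zfp42, the Rex1 gene, had an adjusted p of 0.0089 but a difference of -0.78 ± 0.21, under the fold threshold. Sox2, the partner of Oct4, did fall, from 2744 and 2549 to 744 and 654 (-1.92 ± 0.28). Fgf4, the autocrine growth factor that is a target of Oct4 with Sox2, fell furthest of the 2 lists, from 1008 and 1343 to 20.2 and 39.4 (-5.31 ± 0.59, limma adjusted p = 1.5e-05). Utf1 (-2.26) and Trim71 (-1.85), a chromatin factor and an RNA-binding ubiquitin ligase, fell as well. Dppa2, which activates 2-cell genes together with Dppa4, was the member that rose, from 1706 and 1554 to 6744 and 5551 (1.91 ± 0.17); it was singled out after its values were seen.

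Genes of the next developmental state and of LIF signalling moved in part. Of 14 genes of the primed epiblast 5 fell and 2 rose (all genes: 11% and 17.9%), with a median of -0.35. The Nodal antagonist Lefty2 had 29.8 and 22.5 normalised reads with C1C3b and 986 and 1014 with C1+14 (-5.22 ± 0.63), and Lefty1 had 75.4 and 45.1 against 657 and 763 (-3.58 ± 0.56). The groups did not overlap at either gene. The brachyury gene T also fell (-3.34), with 3 and 1 reads in the C1C3b libraries and a call that was lost on leaving out either C1C3b library or C1+14 replicate 1. Sox3, a SoxB1 factor, rose from 165 and 163 to 805 and 919 (2.38 ± 0.16). Otx2 was not called (-0.17 ± 0.90). Of 11 genes of the LIF-STAT3 pathway 5 fell and 0 rose (all genes: 11% and 17.9%). Among them were Lif itself (-1.95), Bcl3 (-2.32), the kinase gene Pim3 (-1.24) and the feedback inhibitor Socs3 (-1.57), whose call was lost when any 1 of the 4 libraries was left out.

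The low pluripotency values separated C1C3b from the sister chimeras too. Over both lists (31 genes) C1C3b was lower than C1C3a at 17 and higher at 1 (all genes: 17.3% and 18.3%), and lower than C1C3c at 15 and higher at 0 (all genes: 3.53% and 7.66%). Against FL it was lower at 12 and higher at 5 (all genes: 19.7% and 23.3%), and the naive factors had a median difference of -0.07. Klf4 was higher than with FL (2.38 ± 0.36), and Sox2 (0.01 ± 0.28) and Tfcp2l1 (-0.07 ± 0.22) were not called against it. Nanog had 8928 and 8971 normalised reads with C1C3a, 8499 and 4602 with C1C3c, 4589.5 and 7052 with FL, 7097 and 6799 with C3+14 and 16214 and 15907 with mCherry. Both C1C3b libraries were below every library of these groups. C1C3b differed at Nanog by -2.93 ± 0.24 from C1C3a, -2.41 ± 0.24 from C1C3c and -2.28 ± 0.24 from FL (limma adjusted p = 6.9e-07, 2.1e-05 and 4.8e-06). In order of their means the groups ran from mCherry over C1+14, C1C3a, C3+14, C1C3c and FL to C1C3b, and the libraries of C3+14, C1C3c and FL overlapped. Prdm14 differed by -2.59 ± 0.37 from C1C3a and -1.74 ± 0.37 from C1C3c. Fgf4 and Tfcp2l1 were among the exceptions. Fgf4 had 53.1 and 53.8 normalised reads with C1C3a, and the difference of -0.90 ± 0.59 was not called (limma adjusted p = 0.21). Tfcp2l1 had 5178 and 5432 with C1C3a, below both C1C3b libraries, and its difference of 0.45 ± 0.22 was not called (limma adjusted p = 0.10). Sall4 was lower with C1C3b than with C1C3a (-2.76 ± 0.19), where it stood at 10246 and 13467, without being called against C1+14.

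Of the epithelial genes, more fell than rose. Over 5 epithelial lists with 76 tested genes, 30 fell and 10 rose (all genes: 11% and 17.9%), with a median of -0.68. Summed over all 81 members, the C1C3b libraries held 64197 and 63700 normalised reads and the C1+14 libraries 73351 and 76341, a smaller difference than the median. Gap junction genes, whose connexin products form channels between cells, held the largest single decrease: 6 of 11 fell and 3 rose. Gjb5 had 0 and 8.45 normalised reads with C1C3b and 406 and 574 with C1+14 (-7.30 ± 0.94, limma adjusted p = 5.5e-05). The C1C3b libraries were low, with no overlap. Gja1, a widely expressed connexin gene, fell from 546 and 359.7 to 43 and 30 (-3.59 ± 0.28). The connexin genes that rose were Gjb2, Gjb6 and Gja6; Gjb6 had 6 and 0 reads in the C1+14 libraries and 52 and 61 in the C1C3b libraries.

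Tight junction genes, which seal the space between epithelial cells, showed 6 decreases and 0 increases among 16 (all genes: 11% and 17.9%). Cldn4 had 4.39 and 7.51 normalised reads with C1C3b and 167 and 337 with C1+14 (-5.14 ± 0.47, limma adjusted p = 3.1e-06). The claudin genes Cldn3 (-3.30), Cldn7 (-2.42) and Cldn6 (-1.95) fell from lower levels. Cldn3 had 40.2 and 47.1 normalised reads with C1+14, Cldn6 47.5 and 54.6 and Cldn7 21.9 and 36.6. Tjp3, a scaffold gene, fell (-3.33 ± 0.44), whereas Tjp1, the ZO-1 scaffold gene, had 3197 and 3389.6 against 3742 and 3244 (-0.08 ± 0.11, limma adjusted p = 0.59). Among adherens junction and desmosome genes 6 of 17 fell and 2 rose (all genes: 11% and 17.9%). Cdh1, the E-cadherin gene, had 3984 and 4288 with C1C3b and 11872 and 11639 with C1+14 (-1.51 ± 0.16). Cdh3, the P-cadherin gene, fell by more (-3.35 ± 0.35), as did the nectin gene Nectin2 (-2.84 ± 0.19). Epcam had 279 and 219 against 507 and 484, a difference at the threshold of 1. With mCherry alone Epcam had 201 and 225 normalised reads, near the C1C3b values, and it was called higher with C1+14 than with mCherry (1.22 ± 0.22). The Epcam call was lost with DESeq2, with a pseudocount of 8 and on leaving out C1C3b replicate 2 or C1+14 replicate 1, and that of Cldn7 on leaving out C1C3b replicate 1 or C1+14 replicate 2.

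Among epithelial regulators and membrane proteases 10 of 22 fell and 3 rose, and close relatives moved in opposite directions. Grhl3, a Grainyhead-like factor of surface epithelium, had 27.2 and 27.2 normalised reads with C1C3b and 819 and 689.6 with C1+14 (-4.74 ± 0.44). Its relative Grhl2 rose, from 89.9 and 61.4 to 428 and 403 (2.47 ± 0.22). The splicing regulator gene Esrp2 fell (-2.61 ± 0.29) while Esrp1 rose from 17.5 and 1.86 to 93.8 and 87.3 (3.65 ± 0.74); the Esrp1 call was lost when only these groups were fitted. Lad1, an anchoring filament gene, fell (-2.56). Of 10 keratin genes 2 fell (Krt19 and Krt20) and 2 rose (Krt10 and Krt13), near the shares over all genes (11% and 17.9%). The Krt20 call was lost on leaving out any 1 of the 4 libraries. Krt8 (0.10 ± 0.21) and Krt18 (-0.38 ± 0.47), the keratin pair of simple epithelia, were not called. Of 13 mesenchymal genes 3 rose and 0 fell, near the 17.9% higher among all genes. These were Cdh11 (2 and 1 reads with C1+14, 72 and 84 with C1C3b), Snai2 (2.60) and Zeb2 (1.58), the last with a call that did not hold on leaving out any 1 library. Vim, the vimentin gene of mesenchymal filaments, had 4712 and 5694 against 6171 and 5910.2 (-0.22 ± 0.25, limma adjusted p = 0.51).

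**Figure D4:**
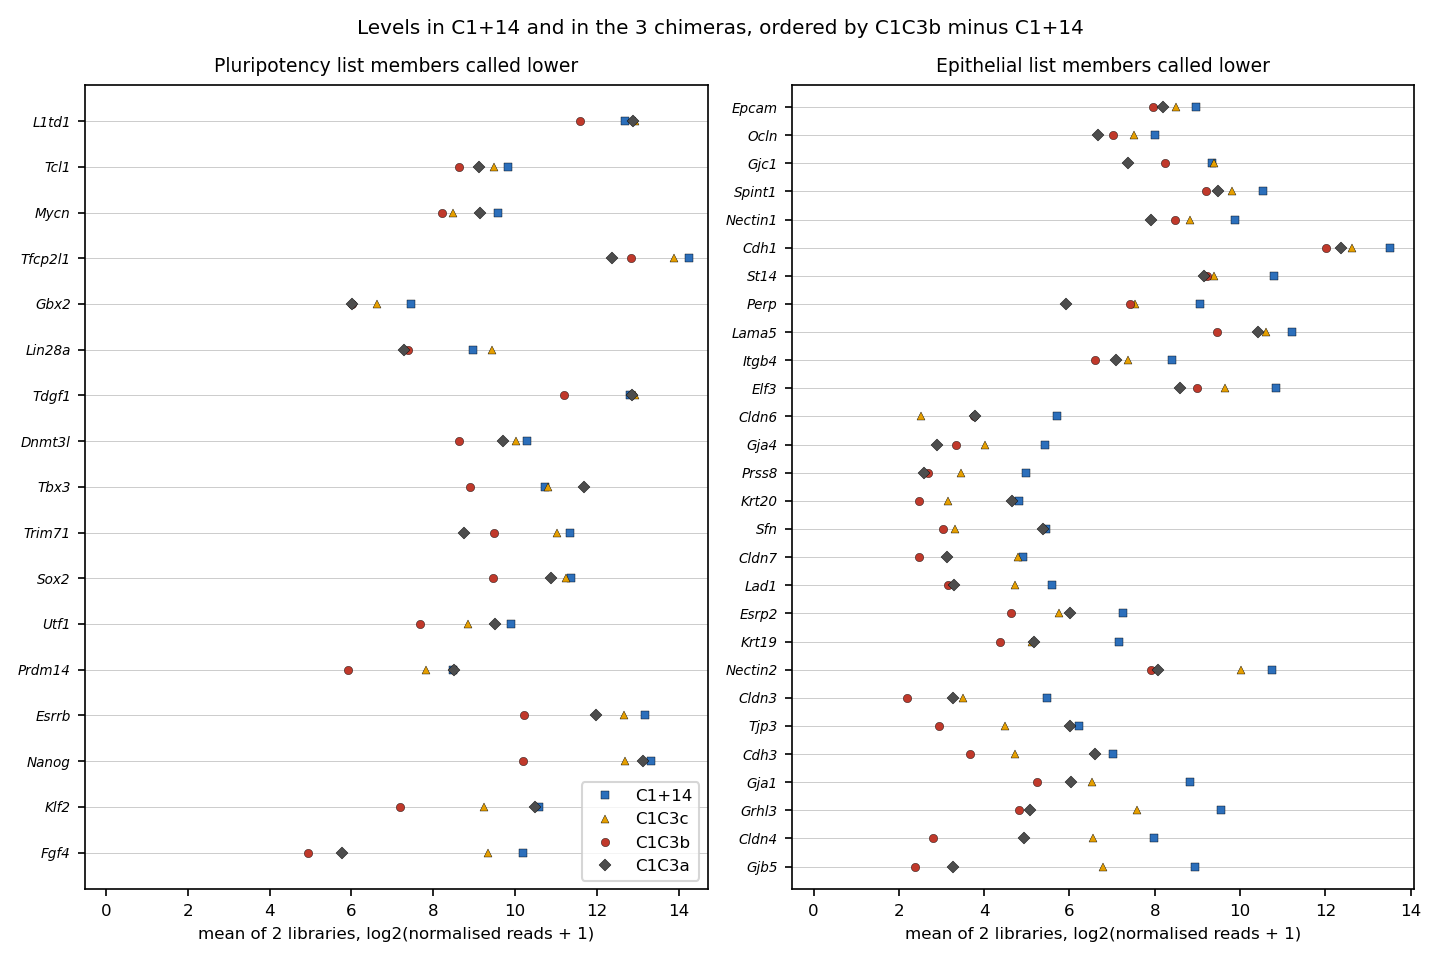
Mean level of the 17 pluripotency genes (left panel) and the epithelial genes (right panel, without those not reported here) called lower with C1C3b than with C1+14, in C1+14, C1C3c, C1C3b and C1C3a, on log2(normalised reads + 1) axes. Genes are ordered by the difference, which picked them. Red points (C1C3b) lie left of the blue (C1+14) by rule; Nanog, Klf2 and Prdm14 are higher in both sister chimeras, while Gjb5 and Grhl3 are low in C1C3a as well.

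The epithelial genes were also set against the sister chimeras. Over the 5 lists C1C3b was lower than C1C3a at 12 and higher at 12 of 76, shares close to those of all genes (17.3% lower, 18.3% higher). Against C1C3c it was lower at 12 and higher at 1 (all genes: 3.53% and 7.66%). Gjb5 had 14.4 and 2.83 normalised reads with C1C3a and 127 and 93.3 with C1C3c. Its difference of -1.32 ± 0.94 from C1C3a was not called (limma adjusted p = 0.25), and that of -5.16 ± 0.94 from C1C3c was (limma adjusted p = 0.0021). Grhl3 had 48.7 and 17 with C1C3a (-0.08 ± 0.44, not called) and 249 and 132 with C1C3c. Cldn4, at 25.5 and 34 with C1C3a and 136 and 51.4 with C1C3c, was lower with C1C3b than with either (-2.17 ± 0.47 and -3.64 ± 0.47). Cdh1 was not called against C1C3a (-0.35 ± 0.16) or C1C3c (-0.57 ± 0.16).

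**Figure D5:**
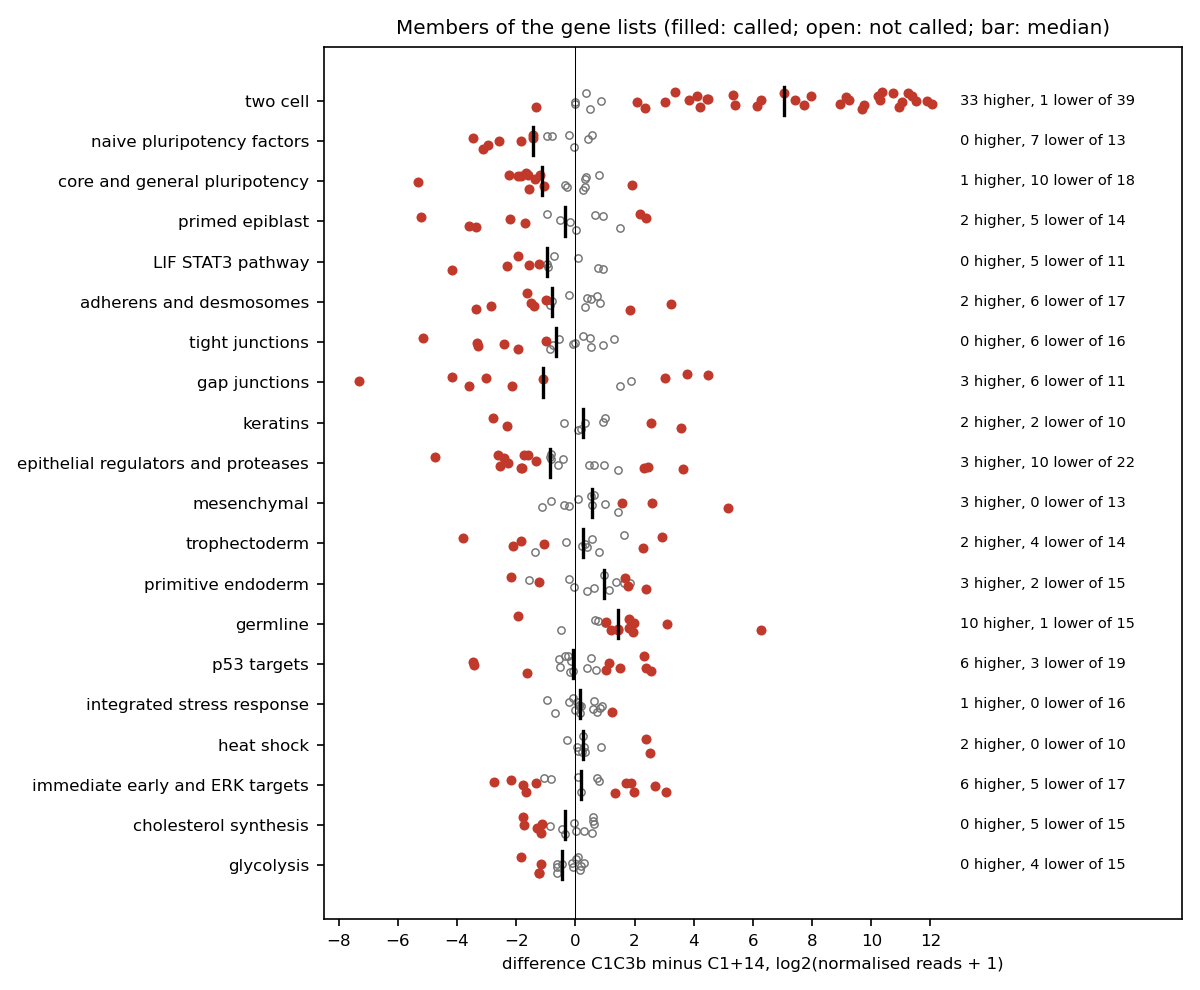
Difference between C1C3b and C1+14 of each tested member of 20 gene lists, on the log2(normalised reads + 1) scale; filled points were called, open points were not, and bars are list medians. The 2-cell list lies furthest to the right, with a median of 7.04, while the naive pluripotency list has a median of -1.42.

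C1+14 itself was not the same as mCherry alone. Between them 18.3% of the 21584 genes were called (12.4% higher with C1+14, 5.95% lower). At the 2-cell list 8 members were higher and 3 lower of 39, all at low levels. Usp17le had 13.2 and 16.1 normalised reads with C1+14 and 0 reads with mCherry, and Zscan4c 6.58 and 1.86 and 0. Of the pluripotency genes 10 were lower and 2 higher with C1+14. Prdm14 fell from 2172 and 2306 with mCherry to 382 and 329 (-2.66 ± 0.37). Cldn4 fell from 1139 and 1156 to 167 and 337 (-2.27 ± 0.47). Nanog (-0.67 ± 0.24) and Gjb5 (-0.33 ± 0.94) were not called. C1+14 and mCherry libraries differ in their share of high-copy reads, given above, and the construct and that difference cannot be told apart in these calls.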

How the data were processed

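Poly(A) RNA was sequenced from stranded libraries, per the labels' protocols; the submitters' processing notes name Trim Galore 0.5.0, FastQC, DESeq2 and the mm10 genome, and the aligner, counter and annotation are not given in the sources used here. The deposited values are a signal, gene read counts that the authors divided by 1 size factor per library: 100% of the 371750 values above 0 were whole multiples of 1 read's value (tolerance 0.001 reads). All 14 chimera libraries held between 21059953 and 32543856 reads, which limits precision at low counts, and no column was left without a sample. Symbols, coordinates and shared 50-base stretches came from GENCODE M21 (GRCm38), which gave a symbol to 99.5% of 55487 genes. Sequences upstream of genes came from RefSeq.

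Genes with at least 10 normalised reads in at least 2 libraries entered limma 3.58.1 (R 4.3.3) with all 7 groups, which share 1 estimate of the spread. The test ran on log2(value + 1) with an intensity trend, 2 libraries per group, Benjamini-Hochberg adjustment over all genes tested, and no covariate. On simulated data it recovered 92% of 4-fold and 71% of 2.5-fold changes, placed only in genes with a C1+14 mean of at least 50. A gene that was not called may therefore still have changed. Bounds for 0 reads took 3 reads per library and cover counting error only. With 2 libraries against 2, an exact permutation test of 1 gene cannot go below 0.333, so none was used. Alternatives were quantile normalization, edgeR 4.0.16 and DESeq2 1.42.0 on recovered reads, other pseudocounts, filters, fold thresholds and groups in the fit, a replicate block, genes without shared sequence, and leaving out each library.

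The text names, by rule, a fixed set of 2-cell, pluripotency and epithelial genes. It adds the 10 largest increases and 10 largest decreases among called protein-coding genes with a mean of at least 50, no overlap and under 10% shared sequence, and the 3 largest increases of any kind. It further adds the leading called members of each list and the 5 largest changes each way against C1C3a and C1C3c; not all were printed. Any other list member named was picked after its values were seen. Some genes that the rule covers are not reported here. The members and lists were chosen with earlier results of these data known.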

Additional observations from a re-analysis of the deposited data

How the results depend on the processing

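Counts of calls moved with the fold threshold, the samples fitted and the treatment of shared sequence. Without a fold threshold, 9709 genes were called between C1C3b and C1+14 (4013 lower), 11664 against C1C3a, 4592 against C1C3c and 6774 between C1+14 and mCherry. At a difference of at least 2 on the log2 scale the counts were 3174 (2255 higher, 919 lower), 4095 against C1C3a, 1203 against C1C3c, 4937 against FL and 1849 between C1+14 and mCherry, with 6 pluripotency and 18 epithelial genes lower. Without genes that share sequence, 2541 genes were higher than with C1+14, 5 of them on the 2-cell list; 1602 were called against C1C3c and 2314 between C1+14 and mCherry. Fitting only C1C3b and C1C3c left 496 calls; the cause was not tested beyond the smaller number of samples. Leaving out 1 library at a time gave 4823 to 5832 calls against C1+14 (2928 to 3657 higher, 1895 to 2175 lower), 6373 to 7505 against C1C3a, 1449 to 2506 against C1C3c, 8128 to 9361 against FL and 2588 to 3548 between C1+14 and mCherry. Against C1C3c the count was 1449 without C1C3b replicate 2 and 1458 without C1C3c replicate 1, and for C1+14 against mCherry it was 2588 without mCherry replicate 1. The same refits gave 32 to 34 higher 2-cell genes, 15 to 16 lower pluripotency genes and 24 to 28 lower epithelial genes; a lone library was assumed to vary like the other groups. With edgeR 6385 genes were called against C1+14 and with DESeq2 6025. With the replicate number as a replicate block 6160 were called, against 6242 without; deviations of same-numbered libraries correlated between -0.10 and 0.05 over 21 pairs of groups, 0 of them over 0.1, so the numbers were not taken to pair the samples. Of 131 called genes among the 144 that the naming rule covers, 98 kept their call under all alternatives other than the higher fold threshold, and 0 changed direction. T, with 3 and 1 reads in the C1C3b libraries, is limited by depth; its call and those of Socs3, Krt20 and Zeb2 were lost when libraries were left out, and the cause was not tested.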

Other observations

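Germline genes rose with C1C3b in 10 of 15 cases and fell in 1, with a median difference of 1.45; among all genes tested 17.9% rose and 11% fell, with a median of 0.15. Tdrd1, a Tudor-domain gene of the piRNA pathway, had 776 and 1505 normalised reads with C1C3b and 8.77 and 18.6 with C1+14 (6.29 ± 0.49, limma adjusted p = 7.9e-07). It was higher than with C1C3a (161 and 52.4) and C1C3c (55.8 and 52.8) as well, by 3.54 ± 0.49 and 4.29 ± 0.49. With C3+14, whose libraries held 0.30% and 0.30% high-copy reads and 9.0% and 10% mitochondrial reads, it stood at 766 and 863. Slc25a31, the germ-cell ADP/ATP carrier gene, rose from 41.7 and 68.8 to 422 and 526 (3.11), and Ddx4, the Vasa gene, by 1.99. Dnd1, an RNA-binding protein gene of germ cells, fell (-1.95). Of 19 p53 targets 6 rose and 3 fell (all genes: 17.9% and 11%). The kinase gene Plk2 went from 1993 and 2029.6 to 10558 and 13516 (2.57 ± 0.21) and the death receptor gene Eda2r rose (2.38), whereas the cytokine gene Gdf15 (-3.45) and the pro-apoptotic gene Bbc3 (-3.42) fell. Of 17 immediate early and ERK target genes 6 rose and 5 fell, among them Egr1 (3.06) and Etv5 (-2.74).

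Lineage and metabolic genes changed in smaller numbers, beside 17.9% higher and 11% lower among all genes. The counts of the primitive endoderm list, and of trophectoderm, heat shock and Obox genes that rose, are near those shares. In the trophectoderm list 2 of 14 genes rose and 4 fell. Tfap2c, a trophoblast and germ cell factor, went from 483 and 562 to 35.1 and 38.5 (-3.79 ± 0.35), and Gata3 from 9.5 and 33.5 to 148 and 137 (2.91 ± 0.70). In the primitive endoderm list 3 of 15 rose (Gata6 by 2.38) and 2 fell. Cholesterol synthesis genes fell in 5 of 15 cases and rose in 0, and glycolysis genes fell in 4 of 15 and rose in 0, with Hk2, a hexokinase gene, at 2369.7 and 3109.9 against 8858 and 10771. Of 10 heat shock genes 2 rose, the near-identical pair Hspa1a and Hspa1b. Of 16 integrated stress response genes 1 rose (Atf3), of 6 Obox homeobox genes 1 (Obox3), and of 19 repressors of the 2-cell state 1 rose (Zmym2) and 1 fell (Max). The calls of Gata3, Gata2 (the other trophectoderm gene that rose), Atf3, Obox3 and Zmym2 were each lost under at least 1 alternative.

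Markers of cell identity and RNA quality were read in the same way, with 17.9% of all genes higher and 11% lower. Of 8 embryonic stem cell markers 5 fell and 0 rose, and their summed level was 45961 and 40629 normalised reads with C1C3b and 62050 and 61632 with C1+14. Fibroblast markers summed to 423 and 471 with C1C3b and 466 and 559 with C1+14; of 8 tested 3 rose, Postn with a call lost under most alternatives (Col3a1, Lum and Postn, the highest value being 84.2 normalised reads of Lum in 1 library) and 1 fell (Pdgfrb). Neuron markers summed to 5629 and 5125 against 5045 and 5414, and 1 of 6 rose (Elavl3, a call lost under most alternatives). Of 13 mitochondrial genes 12 rose (median 1.16), in step with the higher mitochondrial share of the C1C3b libraries than of the C1+14 libraries. Calls of mt-Co1, mt-Co2 and mt-Atp6 were lost under quantile normalization. Of the same 13 genes 7 were lower and 0 higher with C1+14 than with mCherry (median -1.03). C1C3b was called lower than C1C3a at 1 of them and higher than C1C3c at 2. The part of these differences in the other results was not tested.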
